A study of Mus musculus with 6 samples.

Results

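Integrins are the receptors through which blood stem cells hold on to the bone marrow. This account covers 9 genes, those of the beta 1 chain (Itgb1), of alpha chains that pair with it (Itga2, Itga4, Itga5, Itga6 and Itga9), and of the beta 3 chain (Itgb3) with its alpha partners (Itga2b and Itgav). They are 9 of the 18193 genes that a probe set of the array names alone, and all 29 of their probe sets were used, out of 45037 tested. The rule that picks them uses gene names and no measured value, though the genes were chosen with earlier results of these data known.

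Each integrin is a pair of an alpha and a beta chain that spans the membrane, so a receptor on the surface needs transcripts of both. The beta 1 receptors bind matrix proteins such as fibronectin, laminin and collagen, and the receptor with the Itga4 chain also binds Vcam1 on marrow stroma. The beta 3 receptors bind fibrinogen and vitronectin. Inside the cell, talin and kindlin switch integrins on and link them to actin filaments, and the genes of many proteins of these filaments are targets of the transcription factor SRF.

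RNA came from LSK cells (Lin-Sca1+c-Kit+), a marrow fraction sorted to contain the blood stem cells and early progenitors, of mice on the C57BL/6 strain. The 3 control samples carried Srf+/+;Mx1-Cre and the 3 SRF-null samples Srf flx/flx;Mx1-Cre. Both genotypes thus carry the Cre transgene, whose Mx1 promoter answers to interferon in many cell types and is not restricted to blood cells. Both also received pIpC, a double-stranded RNA that induces it, from an age of 6 weeks, as 3 injections of 200 µg at intervals of 2 days. Cells were collected 35 days after the last injection, from pooled animals, and the labels do not say how many animals made a pool. The p-values therefore measure the spread between these samples only. The question addressed here is which integrin transcripts differed between the genotypes.

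Values are array signals after quantile normalization, given as log2(signal + 16), and every difference is SRF-null minus control on that log2 scale. Means carry the SD of the 3 arrays of a group (n = 3), and differences carry the standard error of limma's moderated test. Levels of different probe sets are not compared with each other, since each probe binds its target with its own strength. In a bulk sample, fewer cells of a type and less RNA per cell cannot be told apart.

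The targeted gene, Srf, gave 13.04, 13.00 and 13.04 on control replicates 1 to 3 and 12.58, 12.43 and 12.80 on SRF-null replicates 1 to 3 with probe set 1418255_s_at. Its difference was −0.42 (SE 0.14, limma adjusted p = 1) with groups that did not overlap, and probe set 1418256_at gave 0.10 (SE 0.35). It is not known here whether either one binds the stretch of Srf that Cre removes. Of the 2 genes of the positive gate, Kit lay at 14.81 to 15.44 over the 6 arrays and the Sca1 gene was not analysed here. The progenitor gene Cd34 lay at 16.72 to 16.93 and the blood cell gene Ptprc at 15.34 to 15.74. Of 8 measured lineage genes, 4 stayed under a signal of 64 on every array. The list's mean over genes ran from 5.36 to 6.15 in control and from 5.26 to 6.97 in SRF-null arrays. Control replicate 2 lacked Y-linked transcripts and SRF-null replicate 1 lacked Xist, whereas the other arrays carried both. Of 4 measured sex-linked transcripts 3 were higher in SRF-null arrays without overlap, while the groups did not overlap in 10.6% of all genes. The share of cells of each sex may thus differ between the genotypes on the other arrays too. Leaving out these 2 arrays, an alternative used below, is not known to balance that share. Signal from the 3′ end minus that from the 5′ end of Actb, a sign of RNA quality, was 1.18 to 1.45 in control and 0.93 to 1.51 in SRF-null arrays.

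SRF binds DNA at the CArG box, which reads CC, then a run of A and T, then GG, alike on both strands. RefSeq promoter sequences (mouse build GRCm38, the 300 bases around each gene's start) were found for 7 of the 9 integrin genes, Itga6 and Itgb3 being the others. The Srf promoter itself, which holds CArG boxes, is shown for comparison with the 2 integrin promoters that hold a stretch differing from the box at 1 position. Capitals mark the box or the near match, and each sequence is written 5′ to 3′ on the strand of its gene.
Srf (chr17:46556195-46556264, minus strand): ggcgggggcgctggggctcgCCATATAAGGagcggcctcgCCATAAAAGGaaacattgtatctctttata
Itgb1 (chr8:128685597-128685646, plus strand): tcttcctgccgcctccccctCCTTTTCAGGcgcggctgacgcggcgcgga
Itga5 (chr15:103366887-103366936, minus strand): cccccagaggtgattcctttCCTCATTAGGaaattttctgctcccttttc
An exact CArG box was found in 0 of the 7 integrin promoters and in 1.63% of all 32851 promoters of this length. A near match was found in 2 of the 7 and in 19.9% of all promoters. These are matches of letters in a short window and do not show where SRF binds.

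Of the 29 integrin probe sets 0 passed an adjusted p of 0.05 by limma, as did 0% of all 45037 probe sets, where the smallest adjusted p was 0.438. At an unadjusted p under 0.05 there was 1 integrin probe set, against 4.39% of all probe sets (1975). The groups did not overlap in 1 of 29, higher in SRF-null cells, against 9.23% of all probe sets (4.73% higher and 4.5% lower). With so few probe sets, neither count sets the integrins apart from the background. Higher differences were seen for 17 probe sets and lower ones for 12, with a median of 0.03 over the 29 and of 0.00 over all probe sets. The median size of a difference, whatever its sign, was 0.18 for the integrins and 0.15 for all probe sets. The replicate number was also entered as a block, a pairing read from the deviations of these same arrays. In that fit 3 of 29 integrin probe sets had an unadjusted p under 0.05, against 7.08% of all, and again 0 passed the adjustment. The 3 were Itgb3 1455257_at, Itga9 1460285_at and the dim Itgav 1432296_a_at, and this count is also too small to set the integrins apart.

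**Figure D1:**
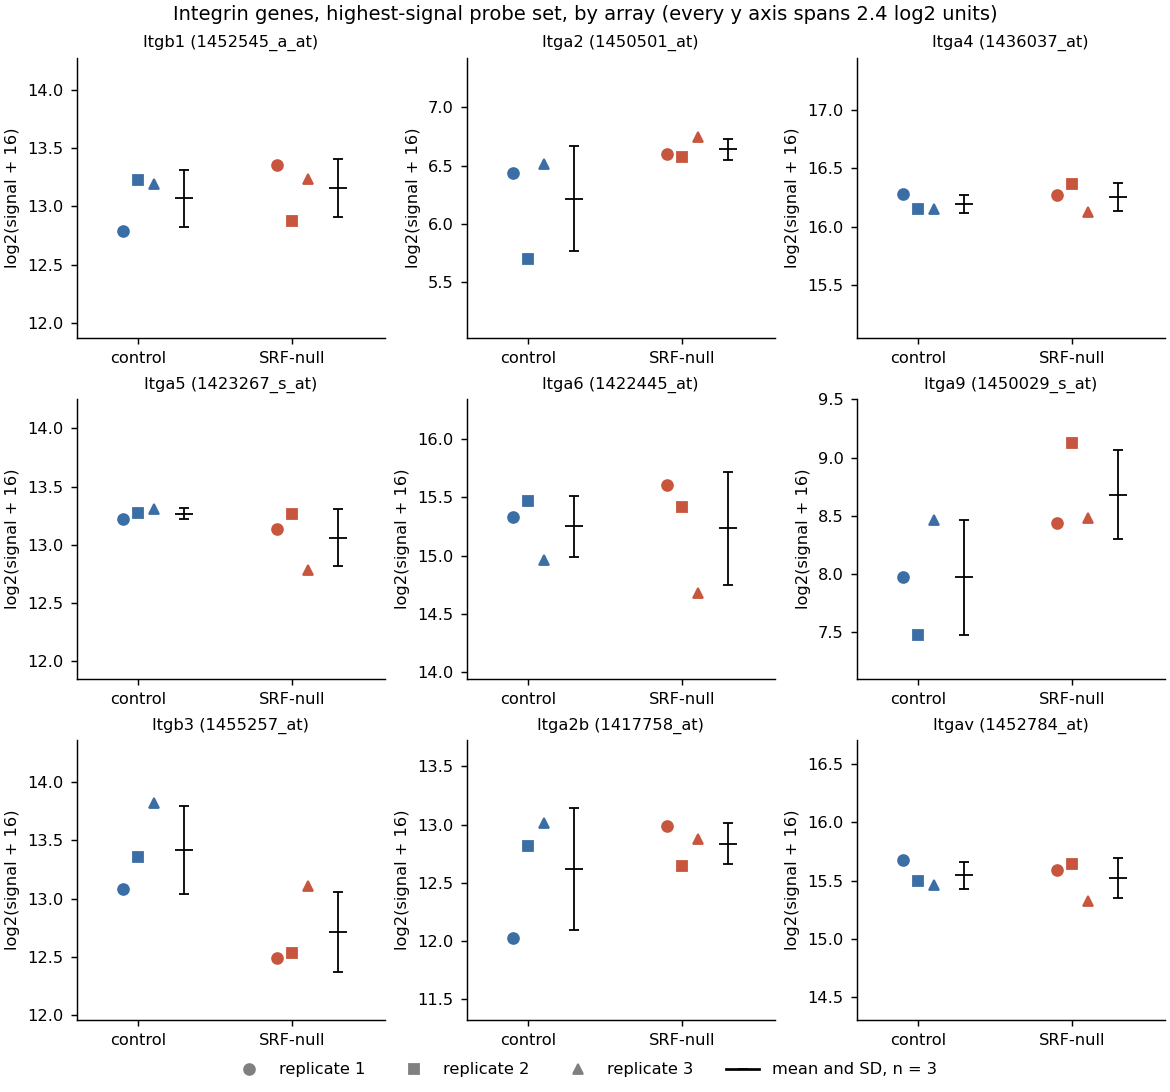
Normalized log2(signal + 16) of the 9 integrin genes on each of the 6 arrays, for the probe set of each gene with the highest mean; points are arrays, shaped by replicate number, and bars are mean and SD (n = 3). In the Itga2 panel all 3 SRF-null arrays lie above the controls, in the other 8 panels the groups overlap, and in the Itgb3 panel only SRF-null replicate 3 (13.11) reaches above the lowest control (13.08).

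The beta 1 chain, Itgb1, was measured with 6 probe sets, and its transcript was detected well above the bottom of the scale with 4 of them. With probe set 1452545_a_at it gave 12.79, 13.23 and 13.19 in control and 13.36, 12.88 and 13.23 in SRF-null replicates 1 to 3. Control replicate 1 was the lowest array and SRF-null replicate 1 the highest, and the groups overlapped. The difference was 0.09 (SE 0.20), with a 95% interval of −0.40 to 0.58. The next probe sets, 1426918_at, 1426920_x_at and 1427771_x_at, differed by 0.18 (SE 0.19), 0.23 (SE 0.14) and 0.17 (SE 0.26). Leaving out 1 array moved that of 1426918_at to between 0.033 (without SRF-null replicate 1) and 0.30.

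In all 4 of these Itgb1 probe sets control replicate 1 was the lowest array. They share a transcript and are not independent, and their correlations with each other over the 6 arrays ran from 0.35 to 0.92. An x in a probe set's suffix marks probes that may also bind other transcripts. The remaining pair was dim. Probe set 1426919_at had a signal of 33.5 to 78.4 and differed by 0.02 (SE 0.28), and 1438119_at stayed under a signal of 16 on all 6 arrays.

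The alpha 4 chain, Itga4, which pairs with beta 1 and binds Vcam1 and fibronectin, was bright and nearly constant. Probe set 1436037_at gave 16.28, 16.15 and 16.15 in control and 16.27, 16.37 and 16.13 in SRF-null arrays. The 6 arrays lay close together and the groups overlapped. Its difference of 0.06 (SE 0.13) had a 95% interval of −0.26 to 0.38.

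Other Itga4 probe sets were less even. Probe set 1456498_at gave 12.50, 10.81 and 12.45 in control and 11.90, 11.46 and 12.76 in SRF-null arrays. Replicate 2 was the lowest array in both genotypes there, and the difference was 0.12 (SE 0.56). Probe sets 1450155_at and 1421194_at differed by −0.03 (SE 0.26) and 0.20 (SE 0.15), and the dim 1427615_at by −0.41 (SE 0.28). The 4 brighter Itga4 probe sets correlated with each other from −0.19 to 0.74 over the 6 arrays, so they do not report a common pattern.

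The alpha 5 chain, Itga5, forms the classical fibronectin receptor with beta 1. Probe set 1423267_s_at gave 13.22, 13.27 and 13.31 in control and 13.13, 13.27 and 12.79 in SRF-null arrays. SRF-null replicate 3 stood low and SRF-null replicate 2 lay among the controls. The difference was −0.21 (SE 0.16, limma adjusted p = 1, 95% interval −0.60 to 0.19), and without SRF-null replicate 3 it was −0.068. All 4 Itga5 probe sets had a negative difference, from −0.22 to −0.12. On 1458996_at, control replicate 1 (9.92) stood apart from the other 5 arrays (8.32 to 8.99), and without that array its difference was 0.33.

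The alpha 6 chain, Itga6, makes a laminin receptor with beta 1. Its probe set 1422445_at gave 15.33, 15.46 and 14.96 in control and 15.60, 15.42 and 14.68 in SRF-null arrays. Replicate 3 was the lowest array in each genotype, and the same held for 1422444_at. Both probe sets agreed closely over the 6 arrays (r = 0.98) and both differed by −0.02 (SE 0.28 and 0.38). For 1422445_at the interval was −0.72 to 0.68.

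The alpha 2 chain, Itga2, part of a collagen receptor, was dim in these cells. Its single probe set, 1450501_at, had a deposited signal of 84.1, 34.1 and 66.6 in control and 87.5, 78.2 and 86.2 in SRF-null arrays. On the normalized scale these were 6.44, 5.70 and 6.51 against 6.60, 6.57 and 6.74. It was the 1 integrin probe set in which the groups did not overlap, and control replicate 2 was the array farthest from the others. The difference was 0.42 (SE 0.24, limma adjusted p = 1), and without control replicate 2 it was 0.16.

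The alpha 9 chain, Itga9, binds tenascin C and Vcam1 as a pair with beta 1, and all 3 of its probe sets had a positive difference. Probe set 1450029_s_at gave 7.98, 7.48 and 8.46 in control and 8.44, 9.12 and 8.49 in SRF-null arrays. The groups overlapped by the narrow margin between control replicate 3 and SRF-null replicate 1. The difference was 0.71 (SE 0.32, 1.64-fold, limma adjusted p = 1), with an interval of −0.06 to 1.48.

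Probe set 1460285_at of Itga9 gave 6.15, 6.62 and 6.30 in control and 6.49, 7.82 and 6.83 in SRF-null arrays, a difference of 0.69 (SE 0.36). Probe set 1420860_at differed by 0.36 (SE 0.20). SRF-null replicate 2 was the highest array on all 3 probe sets, and the deposited signal on 1450029_s_at lay between 151.7 and 525.5. Without that array the 3 differences were 0.49, 0.31 and 0.24. When replicate number entered the fit as a block, the unadjusted limma p of 1460285_at went from 0.105 to 0.0302 (adjusted p = 0.676). Those of 1450029_s_at and 1420860_at went the other way, from 0.0659 to 0.109 and from 0.134 to 0.196 (limma adjusted p = 0.764 and 0.825).

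The beta 3 chain, Itgb3, showed the smallest p among the integrins. Its bright probe set, 1455257_at, had a deposited signal of 8788, 10662.5 and 14594 in control and 5765, 5752 and 8668 in SRF-null replicates 1 to 3. After normalization this was 13.08, 13.35 and 13.82 against 12.49, 12.53 and 13.11. In the deposited signal every SRF-null array lay below the lowest control, narrowly so for SRF-null replicate 3. After normalization SRF-null replicates 1 and 2 lay below all controls, and SRF-null replicate 3 lay just above control replicate 1. Whether the groups overlap thus depends on the scaling.

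The means were 13.42 ± 0.38 in control and 12.71 ± 0.35 in SRF-null arrays. The difference of −0.70 (SE 0.27, 95% interval −1.36 to −0.05), or 1.63-fold, had a limma p of 0.0382 and an adjusted p of 1, so it did not pass. At an unadjusted p under 0.05 lower in SRF-null cells stood 2.02% of all probe sets. Within replicate numbers the differences were −0.59, −0.82 and −0.71, alike in direction and size. Blocking on the number, a pairing read from these same data, gave a limma p of 0.00509 (limma adjusted p = 0.580). In that fit 7.08% of all probe sets had an unadjusted p under 0.05.

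The direction of Itgb3 was lower in each of the 15 alternatives run, with differences of −0.90 to −0.50 and unadjusted p-values of 0.00509 to 0.177. The smallest difference came without control replicate 3, and without the arrays that carried transcripts of 1 sex it was −0.63. The second probe set of Itgb3, 1421511_at, had a signal of 5.64 to 28.7, at the bottom of the scale, and differed by 0.03 (SE 0.35). It thus gives no second measurement of the transcript.

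**Figure D2:**
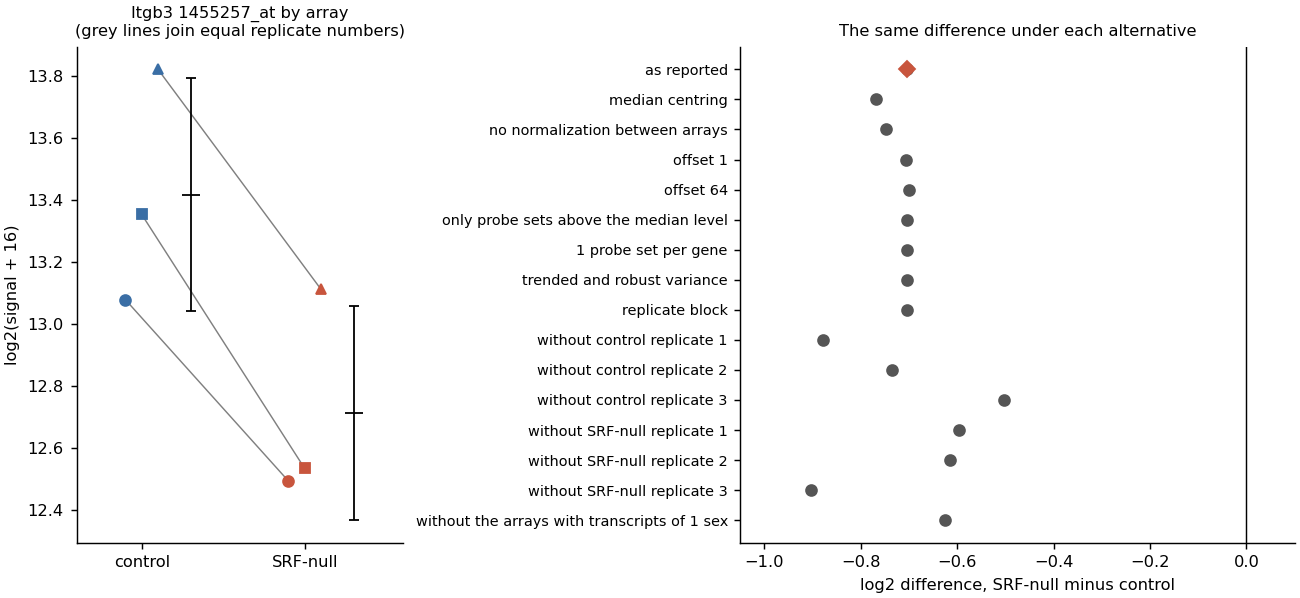
Left, normalized log2(signal + 16) of Itgb3 on each array, with grey lines between arrays of the same replicate number and bars for mean and SD (n = 3); right, the log2 difference under the reported setting (diamond) and under each of 15 alternatives (circles). Within each number the SRF-null array is the lower, by 0.59 to 0.82, and every alternative lies between −0.90 and −0.50.

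The alpha IIb chain, Itga2b, which pairs with beta 3 in the fibrinogen receptor of platelets and is also found on early blood progenitors, gave 12.03, 12.82 and 13.02 in control and 12.98, 12.64 and 12.88 in SRF-null arrays. Control replicate 1 stood low, and the groups overlapped. The difference was 0.21 (SE 0.28, 95% interval −0.48 to 0.91), and without control replicate 1 it was −0.08. In RefSeq gene order Itga2b and Itgb3 lie 41 protein-coding genes apart on chromosome 11.

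The alpha V chain, Itgav, the partner of beta 3 in the vitronectin receptor, was bright with probe set 1452784_at, at 15.68, 15.50 and 15.46 in control and 15.59, 15.64 and 15.33 in SRF-null arrays. The groups overlapped and the difference was −0.03 (SE 0.15, 95% interval −0.39 to 0.33). Probe set 1432678_at differed by −0.18 (SE 0.40), and the dim 1432679_at and 1421198_at by 0.25 (SE 0.24) and 0.17 (SE 0.34).

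A further Itgav probe set, 1432296_a_at, had the difference of greatest size among the 29, at −0.90 (SE 0.46, limma adjusted p = 1). It was dim, with a deposited signal of 70.0, 15.5 and 16.4 in control and 21.2, 0.552 and 4.47 in SRF-null arrays. Its size depends on the offset, being −2.24 when 1 is added to the signal and −0.37 when 64 is added. Blocking on replicate number gave it a p of 0.00263 (limma adjusted p = 0.577), while the bright probe set of the same gene had 0.864.

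Whether Itgb3 differed from its partners in response was examined for 2 pairs, chosen after the values were seen. Itgb3 minus Itga2b was 1.05, 0.54 and 0.81 in control and −0.49, −0.11 and 0.23 in SRF-null arrays. The groups did not overlap, and the shift was −0.92 (SE 0.26). A two-sided exact permutation test gave p = 0.1, the smallest that 3 against 3 arrays allow, and 0.2 after adjustment over the 2 pairs. The shift of Itgb3 against Itgav was −0.68 (SE 0.41, exact p = 0.2, adjusted 0.2). These tests leave out the pairing by replicate number. Within numbers 1 to 3 the shifts were −1.54, −0.64 and −0.57 against Itga2b and −0.50, −0.96 and −0.58 against Itgav, negative in each, and an exact paired test of 3 pairs cannot go below p = 0.25.

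**Figure D3:**
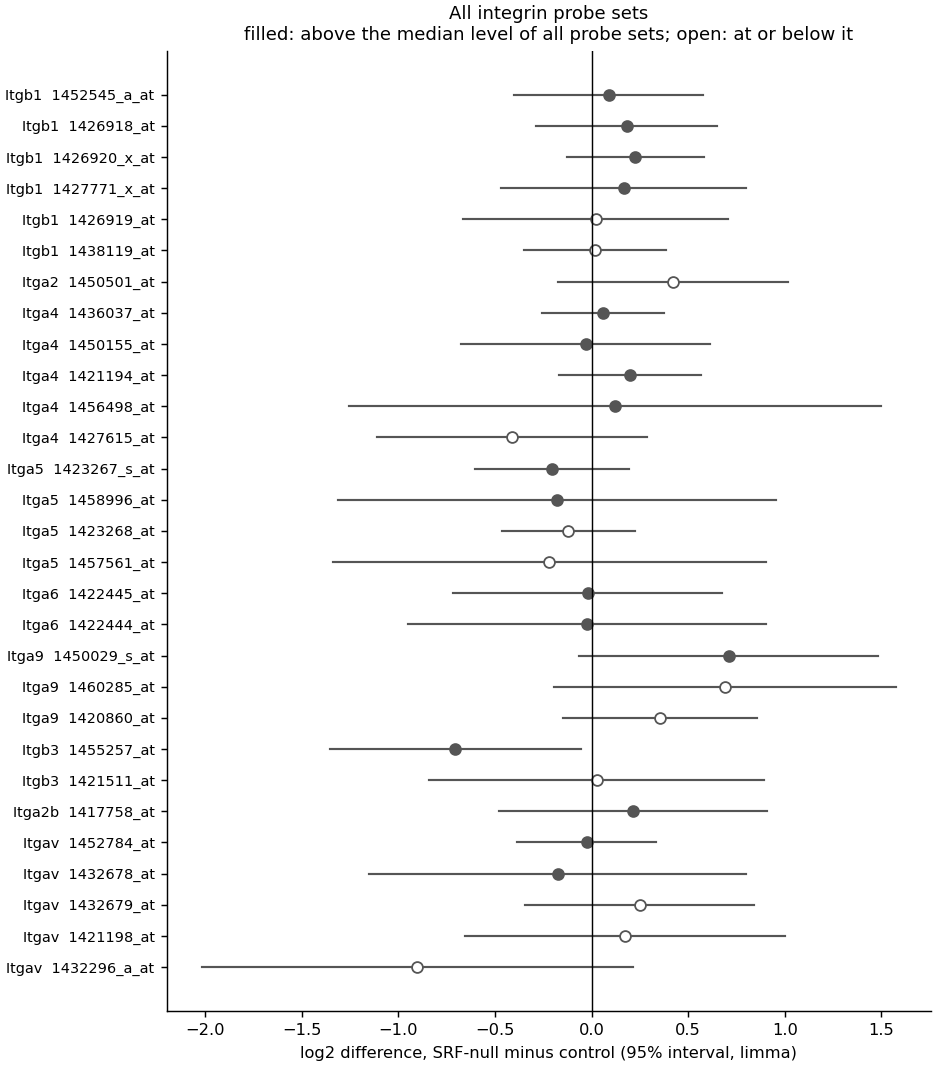
Log2 difference, SRF-null minus control, of all 29 integrin probe sets with limma's 95% interval, filled where the mean level is above the median of all probe sets (7.97) and open elsewhere. Only the interval of Itgb3 1455257_at (−1.36 to −0.05) leaves out 0, and 17 of the probe sets are filled.

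The members did not share a pattern over the arrays. With the highest-signal probe set of each gene, Itgb1 and Itga2b varied alike (r = 0.87 over 6 arrays), as did Itga4 and Itgav (r = 0.87) and Itga6 and Itgav (r = 0.80). Itgb3 correlated with Itgb1, Itga2b and Itgav at 0.14, 0.15 and −0.50. These arrays share genotype groups and processing, so the values are descriptions. The genes with the pattern most like Itgb3, among 12472 with a mean level above 6, were Terf2ip, Agfg1, Lgr4 and Phrf1 (r = 0.99 for each). For Itgb1 they were Mbnl3, Kif5b, Rab1b and Pfkfb3 (r = 0.98 to 0.99).

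The other genes of the pathway were read with 1 probe set per gene, where an unadjusted p under 0.05 was reached by 4.95% of all genes (2.58% higher and 2.37% lower in SRF-null cells). Of 28 measured ligand genes 22 had a negative and 6 a positive difference, with a median of −0.16 against −0.01 over all genes, and 5 were lower at that p. These were the collagen genes Col4a1 (−0.95, SE 0.32) and Col1a2 (−1.78, SE 0.69), the laminin genes Lama4 (−1.06, SE 0.40) and Lama5 (−1.28, SE 0.41), and Emilin1 (−0.41, SE 0.13). None of these 5 passed adjustment over all probe sets by limma (adjusted p = 1). Lama4 and Lama5 were dim, with mean levels of 5.75 and 5.90, below the median of all probe sets (7.97). The size of their differences under other offsets was not tested. Per array, Col4a1 was at 13.03, 13.79 and 12.74 in control and 12.36, 12.47 and 11.88 in SRF-null cells, and the groups did not overlap. The ligand gene Vcam1 was at 8.76, 8.76 and 8.91 in control and 8.45, 10.13 and 10.86 in SRF-null cells, so SRF-null replicates 2 and 3 stood high.

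Among 19 genes whose products activate or restrain integrins, 7 had a positive and 12 a negative difference, and 1 had an unadjusted p under 0.05. It was Itgb1bp2, which encodes melusin, a muscle protein that binds the beta 1 tail, at 0.84 (SE 0.30) and dim. The talin gene Tln1 differed by −0.12 (SE 0.15) and the gene of the blood cell kindlin, Fermt3, by −0.01 (SE 0.17). In the list of 32 adhesome and signalling genes 16 were positive and 16 negative (12 and 20 with median centring), and 3 had that p, Git1 (−0.35, SE 0.12), Tgfb1i1 (−0.64, SE 0.23) and Lims1 (0.33, SE 0.12). Tgfb1i1 lay at the bottom of the scale, with a deposited signal of 0.726 to 21.5. Of 12 membrane proteins that associate with integrins 0 had that p, and the tetraspanin gene Cd9 differed by −0.47 (SE 0.22).

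The 6 actin genes, known SRF targets and the filaments that integrins hold, all had a positive difference, and 2 had an unadjusted p under 0.05 (Actc1, 0.94, SE 0.14, and Actg1, 1.12, SE 0.30; limma adjusted p = 0.897 and 1). Actg1 was at 16.03, 15.33 and 16.48 in control and 17.12, 17.00 and 17.06 in SRF-null cells. Actin genes are so alike that a probe set may bind transcripts of several. The list's mean was 9.02 to 9.14 in control and 9.65 to 9.71 in SRF-null arrays, without overlap. Each gene weighs the same in this mean, and 2 of the 6 stayed under a signal of 64 on every array. The groups did not overlap in 4 of the 6 genes, all higher, against 10.6% of all genes.

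Of 15 other integrin subunit genes 9 had a positive and 6 a negative difference, and 1 had an unadjusted p under 0.05. That gene was Itgb2, the beta chain of the leukocyte integrins, at 11.31, 11.34 and 11.92 in control and 12.41, 12.52 and 12.12 in SRF-null cells. Its groups did not overlap (difference 0.83, SE 0.22). The beta chain genes Itgb7 and Itgb5 differed by 0.25 (SE 0.15) and 0.53 (SE 0.46).

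Lists of cell type genes were read beside the integrins. Their means overlapped between the genotypes in the lists that follow, no test of a list's level was run, and their part in the integrin differences was not tested. The mean of 20 measured stem cell genes, which include Itga2b, was 13.49 to 13.76 in control and 12.92 to 13.53 in SRF-null arrays, with 17 of 20 negative. Over all genes 48.6% had a positive difference. Of the 20, 3 had an unadjusted limma p under 0.05, all lower, against 4.95% of all genes. The groups did not overlap in 3, all lower, against 10.6% of all genes, and 0 passed adjustment. Of 17 multipotent and lymphoid progenitor genes 15 were positive, with list means of 11.91 to 12.61 and 12.44 to 13.43. The summed signal of this list was 412142 to 510646 in control and 567012 to 605108 in SRF-null arrays, without overlap. An unadjusted limma p under 0.05 was reached by 6 of the 17, all higher, against 4.95% of all genes. The groups did not overlap in 7, against 10.6% of all genes, and 0 passed adjustment. Of 16 monocyte and macrophage markers 13 were positive, with list means of 9.59 to 10.51 and 10.14 to 11.57. Their summed signal ran from 127167 to 158332 in control and from 159400 to 211941 in SRF-null arrays, without overlap. Of the 16, 5 had an unadjusted limma p under 0.05, all higher, against 4.95% of all genes. The groups did not overlap in 3, all higher, against 10.6% of all genes, and 0 passed adjustment. The macrophage gene C1qa was at 6.02 to 6.71 in control and 6.87 to 8.98 in SRF-null arrays. Adgre1, the other macrophage marker fixed with the lists, is not given here.

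Markers of megakaryocytes, cells rich in Itga2b and Itgb3, overlapped between genotypes as a list. Of 19 measured markers 12 were positive and 7 negative, with list means of 9.81 to 10.53 in control and 9.77 to 10.57 in SRF-null arrays. The summed signal was 84845 to 116670 and 112426 to 116072. At an unadjusted p under 0.05 stood 3 of the 19, and the groups did not overlap in 6, against 4.95% and 10.6% of all genes. Of these 6, 3 were higher and 3 lower in SRF-null arrays. The 3 were the platelet receptor gene P2ry12 (0.98, SE 0.17, dim), Plek (0.56, SE 0.14) and Nbeal2 (−0.81, SE 0.27). The platelet factor gene Pf4 was at 13.04, 12.37 and 13.84 in control and 12.55, 13.81 and 15.22 in SRF-null arrays, which overlapped. The platelet glycoprotein gene Gp9 was at 12.18 to 12.41 and 12.42 to 13.01, with the groups apart by a narrow margin. Itgb3 was low on SRF-null replicates 1 and 2, where Pf4 lay below 2 of the 3 controls and above 2 of the 3 controls, respectively. Pf4 is only 1 of the 19 markers, which went both ways, and any relation of megakaryocyte genes to Itgb3 was not tested.

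Of 12 mast cell and basophil markers 8 were negative, with list means of 9.17 to 9.74 in SRF-null arrays, inside the control range. Their summed signals were 67995 to 86457 and 70000 to 75017. An unadjusted limma p under 0.05 was found for 2 of the 12, and the groups did not overlap in 3, all lower. Over all genes these shares were 4.95% and 10.6%. Of 21 stromal and endothelial markers 12 were positive, with means of 8.28 to 8.57 and 8.24 to 8.73 and summed signals of 70183 to 88096 and 65022 to 105402. Of the 21, 4 had an unadjusted limma p under 0.05, 1 higher and 3 lower. The groups did not overlap in 4, again 1 higher and 3 lower. In that list Col1a1, which marks bone and stroma, lay at the floor on SRF-null replicate 1 and reached 7.30 on SRF-null replicate 2.

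**Figure D4:**
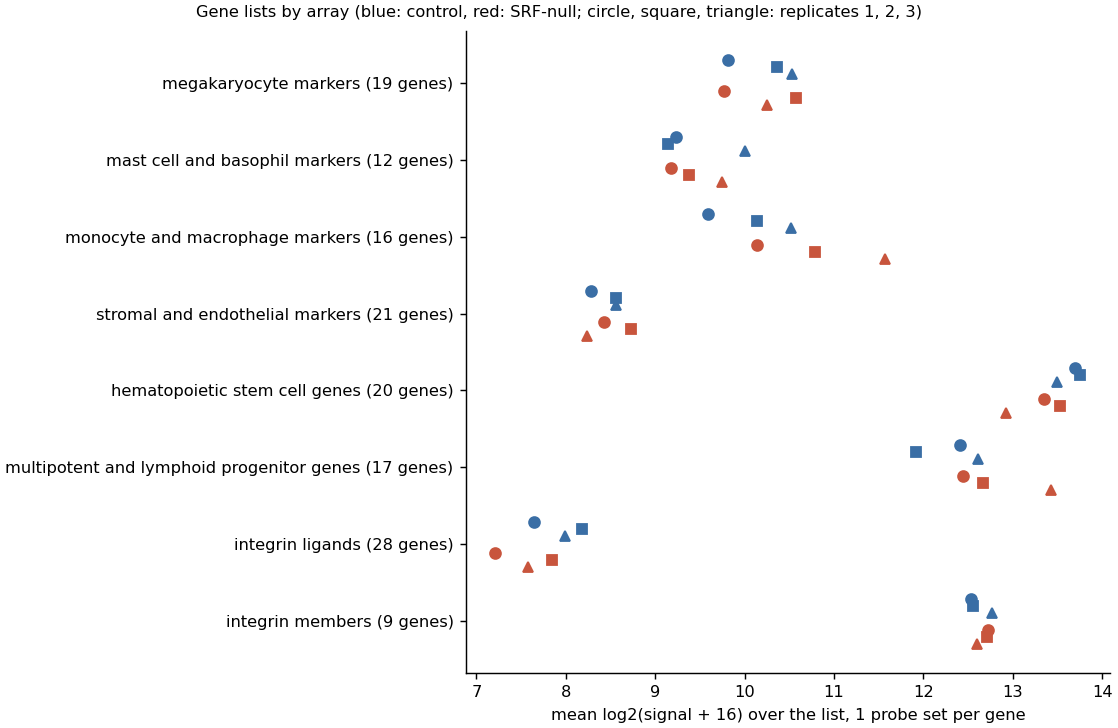
Mean normalized log2(signal + 16) over the genes of each list on each array, with 1 probe set per gene, blue for control and red for SRF-null, shaped by replicate number; values are to be compared within a list only. The 9 integrin members lie at 12.54 to 12.77 in control and 12.60 to 12.72 in SRF-null arrays, while the monocyte and macrophage list reaches 11.57 on SRF-null replicate 3.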

How the data were processed

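Transcripts of 3 control and 3 SRF-null samples of sorted LSK cells were measured on Affymetrix arrays from 30 ng of total RNA, amplified and biotin-labelled with NuGEN kits, per the labels' protocols. The deposited table holds a linear intensity for each probe set on each array, a unit read from the values. The sources used here do not state which summary, background correction or scaling the authors applied. The design text names another array type than the annotation of the table, and the 45101 probe sets were taken as listed. Probe sets were named from the platform annotation, in which 34945 name 1 gene, 932 several and 9160 none, and 64 are Affymetrix controls. All 9 member genes matched the RefSeq gene table (GRCm38.p6) by gene ID.

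Intensities were converted to log2(value + 16), quantile normalized over all probe sets, and fitted on genotype alone with limma 3.58.1 (R 4.3.3; lmFit, eBayes, two-sided). P-values were adjusted by Benjamini-Hochberg over all 45037 probe sets that are no controls, with a threshold of 0.05. The number of arrays, 3 a group, limits the precision, and each array had 26.0% to 27.0% of its probe sets at signals below 16. No detection calls were used. The fit was also run on simulated data, drawn without pairing and with added differences larger than those of the integrins. That run is no measure of the power to find the integrin differences. Itgb3 minus Itga2b and Itgb3 minus Itgav, taken per array, were each compared between genotypes with an exact permutation test (scipy 1.17.1). Figures were drawn with matplotlib 3.10.9.

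Replicate numbers 1 to 3 occur in both genotypes in the labels. Over all probe sets the deviations from the group means of equally numbered arrays correlated at 0.473, 0.210 and 0.427, all above 0.1, so the numbers were taken to pair the arrays. This pairing comes from the data, and the labels do not say what a number shares. The reported fit leaves the pairing out, so its standard errors, intervals and p-values do not take it into account. Fits with the number as a block are given as an alternative.

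Gene lists were written from general knowledge, with 1 probe set per gene, that with the highest mean. The text names every member, Srf, and at most the 4 genes of smallest p in each list. It also names some of the sort and marker genes fixed with the lists, and the 4 genes most correlated with Itgb1 and with Itgb3. The fixed markers Cpa3, Ms4a2, Adgre1 and Cdh5 are given no values in the text. Tln1, Fermt3, Vcam1, Itgb5 and Col1a2 were named for their role after the values were seen. Of the fixed markers, Col1a1 and Pf4, and Gp9 beyond its list's 4, were likewise picked for the text after the values were seen. The members and lists were chosen with earlier results of these data known. Genes of the lists without a probe set naming them alone were not analysed here.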

Additional observations from a re-analysis of the deposited data

How the results depend on the processing

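The integrin differences and their counts were recomputed under up to 15 alternatives, which were another or no normalization, offsets of 1 and 64, only probe sets above the median level, 1 probe set per gene, a trended and robust variance, the replicate number as a block, and the fits without 1 array or without the 2 arrays with transcripts of 1 sex. Probe sets at or below the median level had no value in the fit above it, and those other than the brightest of a gene none with 1 probe set per gene, so that a probe set had 13 to 15 alternatives. In none of them did an integrin probe set pass the adjusted threshold by limma. The count of all probe sets past it was 1 with median centring (Mocs1), 0 to 1 without 1 array (Ccnb1ip1 without control replicate 2) and 0 otherwise. Over all probe sets, the unadjusted count of 1975 became 1231 with median centring, 3189 with the replicate block, 3425 without control replicate 1 and 1291 without the 2 arrays. Integrin probe sets with an unadjusted p under 0.05, 1 of 29 as reported, numbered 0 with an offset of 1 (4.45% of all probe sets). They numbered 3 with the replicate block (7.08% of all) and 0 to 2 without 1 array (3.16% to 7.6% of all). Integrin probe sets whose groups do not overlap numbered 3 without normalization (9.94% of all) and 0 above the median level (10.1% of all). They numbered 2 to 5 without 1 array (15.9% to 24.9% of all) and 5 without the 2 arrays (27.2% of all), where smaller groups overlap less by construction. The median difference of the integrins ran from 0.033 to 0.18 without 1 array, highest without SRF-null replicate 2.

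Of the 29 differences 14 kept their sign in every alternative run for them, among them Itgb3 1455257_at, Itga2, all 3 of Itga9, Itga5 1423267_s_at and Itga4 1436037_at. Without the 2 arrays, Itgb1 1426919_at turned to −0.31, Itga4 1456498_at to −0.37 and Itga5 1457561_at to 0.0036. The other turns came without 1 array, and the cause was not tested. The ranges were −0.083 to 0.41 for Itga2b, −0.20 to 0.19 for Itga4 1450155_at, −0.43 to 0.42 for Itga4 1456498_at, −0.57 to 0.13 for Itga5 1457561_at and −0.43 to 0.33 for Itga5 1458996_at. For Itga6 they were −0.30 to 0.31 (1422444_at) and −0.20 to 0.26 (1422445_at). For Itgav they were −0.076 to 0.49 (1421198_at), −0.54 to 0.18 (1432678_at) and −0.085 to 0.071 (1452784_at). For Itgb1 they were −0.19 to 0.23 (1426919_at), −0.10 to 0.31 (1427771_x_at), −0.077 to 0.095 (1438119_at) and −0.054 to 0.23 (1452545_a_at), and for Itgb3 1421511_at −0.24 to 0.29.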
